A study of Mus musculus with 12 samples.

Results

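The genes described here mark the mural cells of brain blood vessels, the pericytes of capillaries and the smooth muscle cells of arteries and veins. They are 9 genes, Pdgfrb, Rgs5, Acta2, Tagln, Myh11, Kcnj8, Abcc9, Notch3 and Vtn, chosen by name from the 56748 genes of the table. All 9 were found in the table, and all 9 passed the filter on low values that left 19571 genes for testing. Messenger RNA was sequenced from brain tissue of 12 adult C57BL/6 mice, with 1 library per mouse and 4 mice (2 females and 2 males) in each of 3 arms. Mice of the LPS+DMA arm were injected into the abdominal cavity each day with lipopolysaccharide (LPS, a bacterial cell wall component) at 0.5 mg/kg and with N,N-dimethylacetamide (DMA, a small organic solvent), at a dose that no label gives. Mice of the LPS arm received the same LPS schedule without DMA, and mice of the PBS arm received phosphate-buffered saline. Brains of all arms were taken on day 7. No genetic alteration is named for any arm, and no label says whether the LPS and PBS arms also received a vehicle for DMA.

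Pericytes lie inside the basement membrane of capillaries and help to form the blood-brain barrier. They are recruited during development by PDGF-B, a growth factor that endothelial cells release and that the receptor encoded by Pdgfrb binds. Arterial smooth muscle cells wrap larger vessels in rings, and their actin and myosin set the width of the vessel and with it the blood flow. Both cell types need NOTCH3, a receptor for ligands on neighbouring cells, and human NOTCH3 mutations cause the small vessel disease CADASIL. Mural cells are a small share of the cells of a brain, so in RNA from whole tissue fewer cells of a type and less RNA per cell cannot be told apart.

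The libraries held 27.5 to 41.4 M recovered reads (median 34.4 M, where M stands for megareads), and the share of ribosomal RNA lay between 0.0499% in LPS female replicate 2 and 10.9%. The tissue in the libraries differed along with the arms. Gabra6, whose GABA receptor subunit is made by granule cells of the cerebellum, lay at 0 to 0.170 FPKM in the LPS+DMA libraries. It reached 114, 15.6 and 90.5 FPKM in LPS female replicate 1 and LPS male replicates 1 and 2, and 74.6 FPKM in PBS female replicate 1, and it was at 0 in the other LPS and PBS libraries. Ttr, the transthyretin gene of the choroid plexus, lay between 1.91 and 416 FPKM in LPS+DMA, between 181 and 1760 in LPS and between 0.576 and 327 in PBS libraries. The summed level of 7 red blood cell genes was 29.1 to 297 FPKM in LPS+DMA, 243 to 946 in LPS and 71.1 to 116 in PBS libraries. A list of 14 endothelial genes summed to 135 to 197 FPKM in LPS+DMA, 180 to 221 in LPS and 120 to 144 in PBS libraries.

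The levels below are FPKM (reads per unit of gene length, with the library scaling of the deposited table), so they can be set side by side between genes. FPKM times gene length summed to 1.03e9 to 1.10e9 in LPS+DMA, 9.17e8 to 9.63e8 in LPS and 9.52e8 to 9.89e8 in PBS libraries. The scaling thus differed with the arm, and comparisons of LPS+DMA with the other arms carry that difference. Over the 12 libraries Rgs5 was the most abundant member with 32.8 ± 10.2 FPKM (SD, n = 12), and Vtn followed with 29.8 ± 4.80. Rgs5 lay above Vtn in 8 of 12 libraries, and their ranges overlapped. Vtn lay above Acta2 in all 12 libraries without overlap of their ranges, which was the only gap of this kind between neighbours in the order. Acta2 had 8.01 ± 1.67, Tagln 6.19 ± 2.18 and Pdgfrb 4.84 ± 1.68 FPKM. Myh11 had 2.69 ± 1.08, Notch3 2.49 ± 0.600, Abcc9 1.93 ± 0.442 and Kcnj8 1.77 ± 0.607 FPKM. Each of these ranges overlapped that of the next gene, and Myh11 lay above Notch3 and Abcc9 above Kcnj8 in only 7 of 12 libraries. No member was at 0 in any library, and the lowest count behind a value was 71 reads, for Kcnj8 in LPS+DMA male replicate 1.

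**Figure D1:**
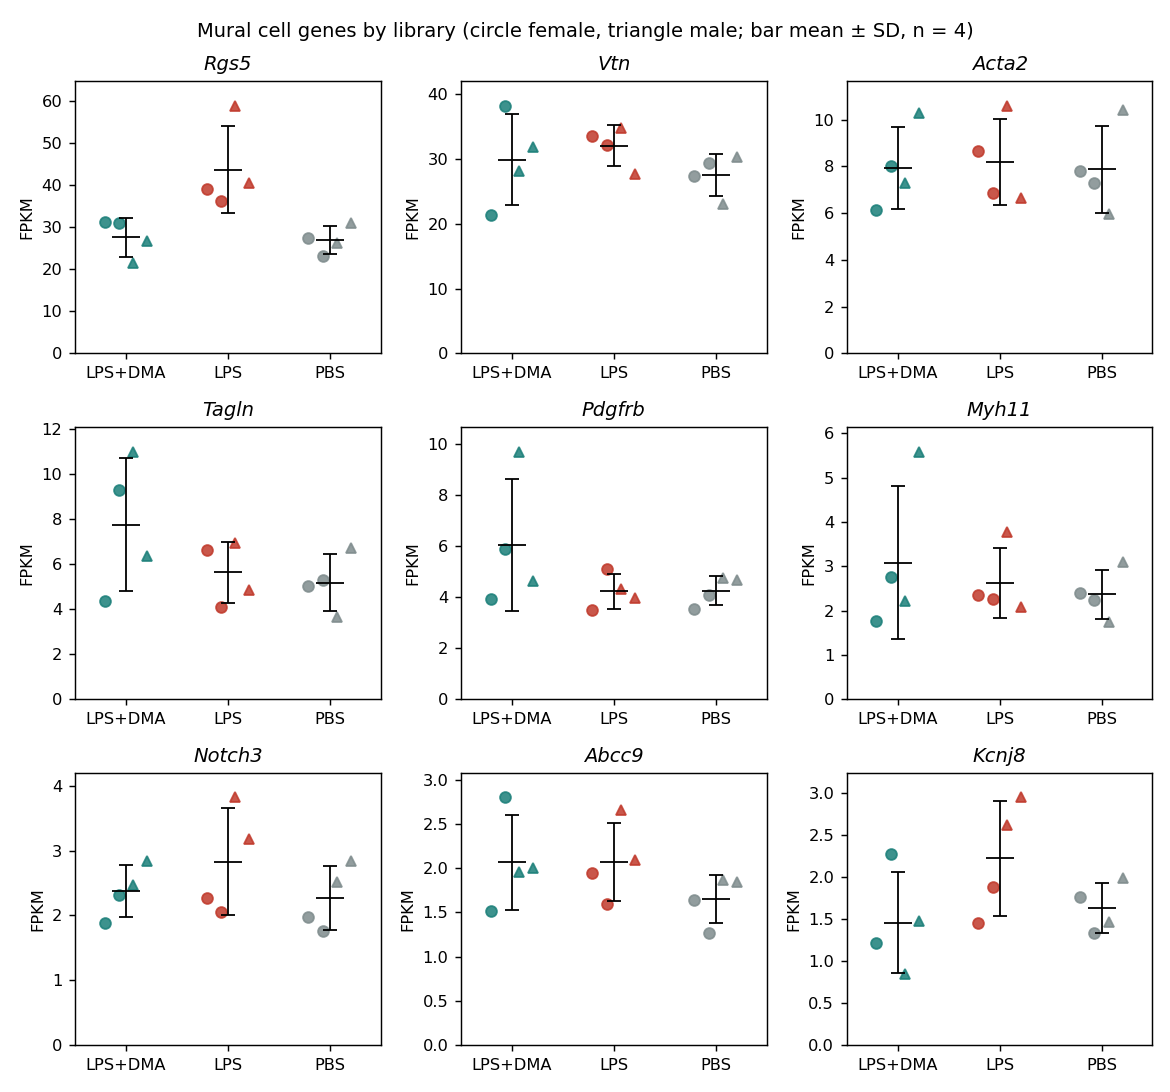
FPKM of the 9 mural cell genes in each library, with LPS+DMA, LPS and PBS mice side by side (circles female, triangles male, bars mean ± SD, n = 4 per arm). The 4 LPS libraries of Rgs5 lie between 36.3 and 58.9 FPKM, above all LPS+DMA and PBS libraries, while the arms overlap for each of the other genes.

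Rgs5 encodes a regulator that speeds the switching off of G protein signals and is a widely used marker of brain pericytes, and it lies at chr1:169483070-169523382 on the plus strand of GRCm39. It fell in LPS+DMA brains against LPS brains and was the only member to pass the test in any of the 3 comparisons. Rgs5 had 31.3, 30.9, 21.4 and 26.7 FPKM in LPS+DMA female replicates 1 and 2 and male replicates 1 and 2, against 39.2, 36.3, 58.9 and 40.5 FPKM in the LPS libraries in the same order. The PBS libraries had 27.5, 23.1, 26.2 and 31.1 FPKM. Every LPS library lay above every LPS+DMA and every PBS library, LPS male replicate 1 was the highest of all, and LPS+DMA and PBS libraries covered nearly the same range. The log2 change of FPKM + 1 in LPS+DMA against LPS was -0.64 ± 0.17 (SE), or 0.643 times the LPS level, with an adjusted p of 0.0415 in limma with Benjamini-Hochberg adjustment. In LPS against PBS the log2 change was 0.66 ± 0.17 with an unadjusted p of 0.00252 and an adjusted p of 0.280 in limma, which does not pass. In LPS+DMA against PBS it was 0.02 ± 0.17, with a 95% interval of -0.35 to 0.40. These comparisons share their libraries, so the values are 3 views of the same 12 numbers.

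The count for Rgs5 stands beside a broad background. Of all tested genes 9.67% passed in either direction in LPS+DMA against LPS and 3.88% passed as lower, and 1 of 9 members did. The ranges of the arms did not overlap for 12.2% of tested genes in that comparison and for 1 of 9 members. In LPS against PBS 0.0102% of tested genes passed (2 genes) and 6.89% had ranges that did not overlap, against 0 and 1 of the 9 members. In that comparison 2145 genes had an unadjusted p under 0.05 in limma, and Rgs5 was the only member among them. In LPS+DMA against PBS 0.0102% passed (2 genes, with 2235 under an unadjusted p of 0.05), 6.64% had ranges that did not overlap, and no member did either. These counts moved when single libraries were left out. Without LPS female replicate 2, the LPS library with the least ribosomal and cerebellar RNA, 3465 genes passed in LPS+DMA against LPS and 672 in LPS against PBS, and Rgs5 passed in the first of these comparisons and not in the second. Without LPS male replicate 1, 7 genes passed in LPS+DMA against LPS, and Rgs5 was not among them. Without both LPS female replicate 2 and LPS+DMA male replicate 1, a setting added after the data were seen, 4156 genes passed in LPS+DMA against LPS and 1396 in LPS against PBS, and Rgs5 passed in both, with log2 changes of -0.57 and 0.72 (adjusted p 0.0414 and 0.0264 in limma).

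The LPS+DMA and LPS arms, which differed in Rgs5, also differed in the tissue content of their libraries, and the cause of the Rgs5 change was not tested. The median summed level of 12 choroid plexus genes was 51.4 FPKM in LPS+DMA and 1370 FPKM in LPS libraries. That of the red blood cell genes was 202 FPKM in LPS+DMA and 449 FPKM in LPS libraries, and that of 10 cerebellar genes was 22.1 FPKM in LPS+DMA and 362 FPKM in LPS libraries. With the mean levels of choroid plexus and red blood cell genes as covariates, the Rgs5 change was -0.13 (adjusted p 0.99 in limma), and with the difference between forebrain and cerebellar genes as a covariate it was -0.53 (adjusted p 0.626). In both fits 0 of 19571 genes passed, in this comparison and in LPS against PBS. The choroid plexus mean was 1.40 ± 0.671 in LPS+DMA and 3.09 ± 0.808 in LPS libraries (SD), so these fits cannot tell arm and tissue content apart. Without the 4 libraries with cerebellar Gabra6 signal it was -0.35 (adjusted p 1.00), with LPS female replicate 2 as the only LPS library left, whose spread the fit takes from the other arms. That library had no detected Gabra6, but its 1240 FPKM of Ttr lay above all LPS+DMA and PBS libraries, as did its 36.3 FPKM of Rgs5. For LPS against PBS the Rgs5 change was -0.01 with the choroid plexus and red blood cell covariates (adjusted p 0.994), 0.59 with the forebrain covariate (adjusted p 0.904) and 0.37 without the 4 cerebellar libraries (adjusted p 1.00), all in limma. Relative to the endothelial list, the log2 level of Rgs5 was higher by 1.48 to 2.11 in LPS+DMA, 2.04 to 2.46 in LPS and 1.91 to 2.06 in PBS libraries, so the arms overlapped on this scale, which was chosen after the values were seen.

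**Figure D2:**
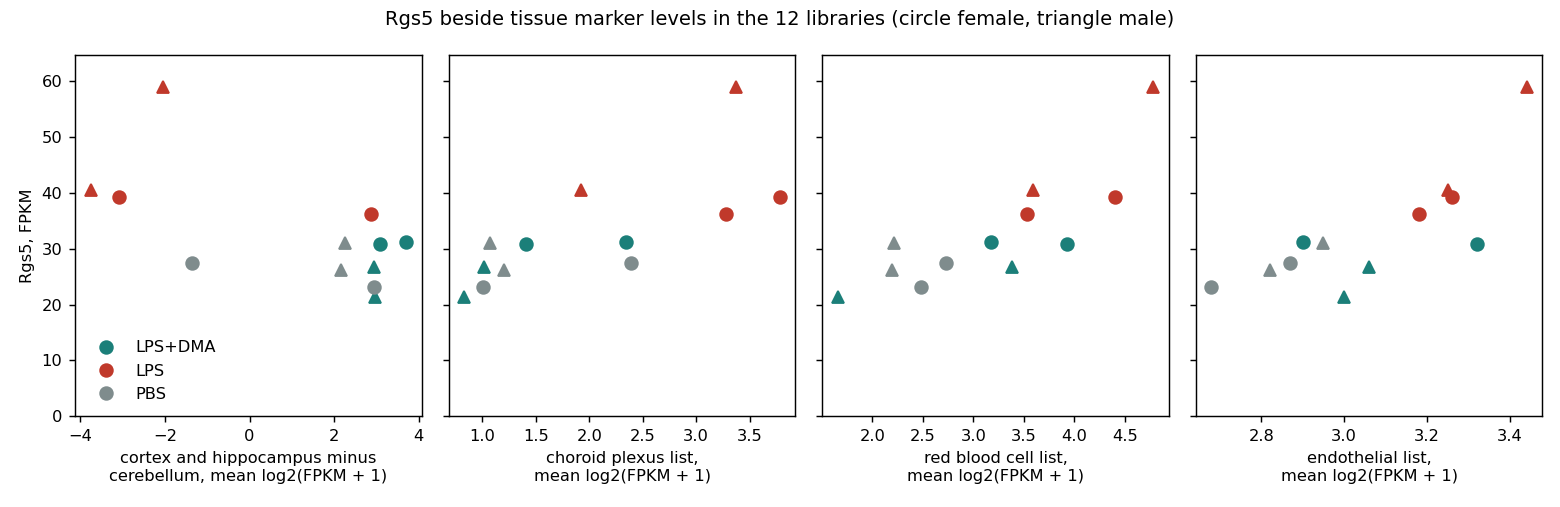
Rgs5 level (FPKM) of each library against mean log2(FPKM + 1) marker levels, from left to right the difference between cortex and hippocampus and cerebellum genes, choroid plexus, red blood cell and endothelial genes (circles female, triangles male). The LPS libraries stand highest in Rgs5, and LPS male replicate 1, with 58.9 FPKM, also has the highest red blood cell (4.78) and endothelial (3.44) values.

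**Figure D3:**
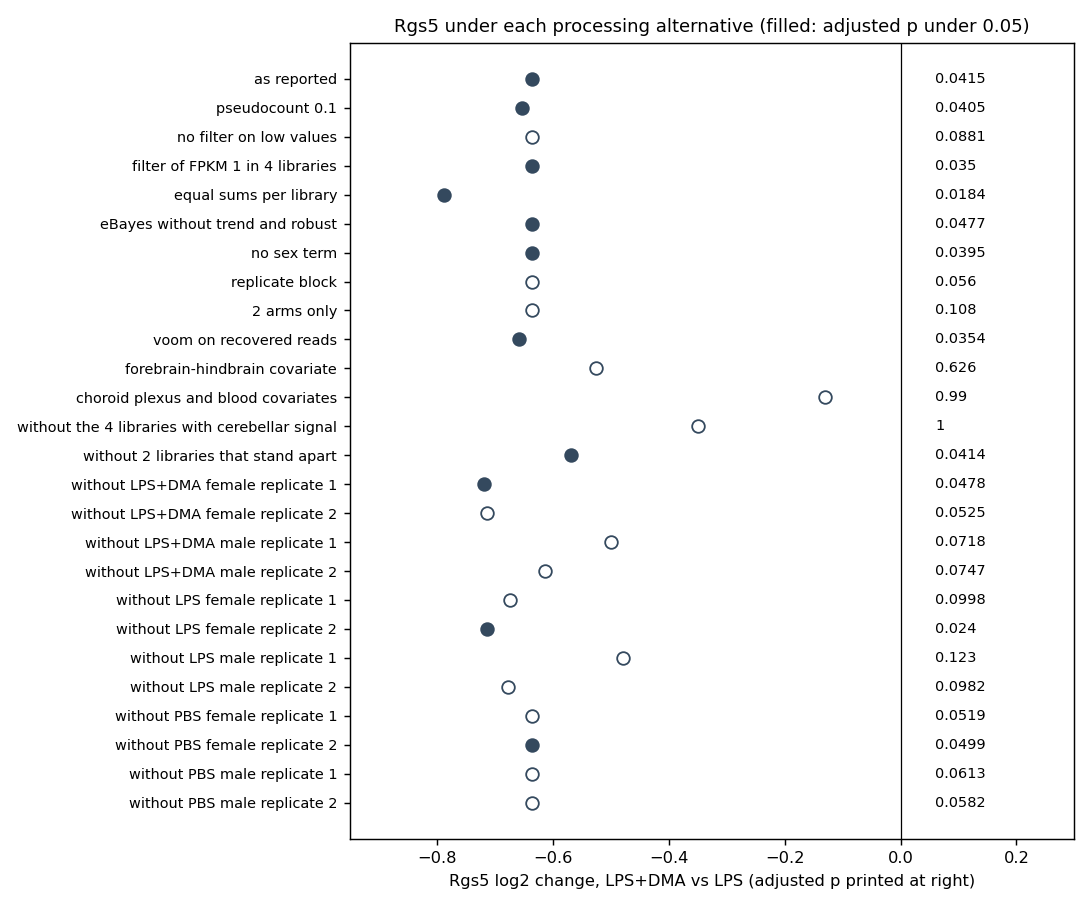
Log2 change of Rgs5 in LPS+DMA against LPS under each processing alternative, with the adjusted p at the right and filled points where it is under 0.05. All values are negative and lie between -0.79 and -0.13. The setting without 2 libraries leaves out LPS+DMA male replicate 1 and LPS female replicate 2.

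The reference promoter of Rgs5 is shown because it belongs to the member that passed the test. It is the 120 bases upstream of the start in RefSeq's GRCm38 build (chr1:169655381-169655500, plus strand), whose build differs from the GRCm39 build of the table. Capitals mark the letters TATATA, 30 to 25 bases before the start, which are their own reverse complement. TATATA was found within 250 bases upstream of the start in 5.25% of 32851 RefSeq promoters and, of the 6 members searched, in Rgs5 alone.
Rgs5: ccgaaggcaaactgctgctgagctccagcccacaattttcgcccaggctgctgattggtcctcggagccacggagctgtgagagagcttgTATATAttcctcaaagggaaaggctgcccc

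Pdgfrb, the receptor for PDGF-B, lies at chr18:61178222-61218133 on the plus strand of GRCm39. It had 3.93, 5.89, 9.72 and 4.63 FPKM in LPS+DMA female replicates 1 and 2 and male replicates 1 and 2, against 3.50, 5.12, 4.32 and 3.98 FPKM in LPS and 3.52, 4.09, 4.77 and 4.67 FPKM in PBS libraries. LPS+DMA male replicate 1 was the highest of the 12 libraries for Pdgfrb and the lowest for Rgs5, and the arms overlapped. The log2 change was 0.37 ± 0.20 in LPS+DMA against LPS (adjusted p 0.247), 0.36 ± 0.20 in LPS+DMA against PBS (adjusted p 0.506) and -0.01 ± 0.20 in LPS against PBS (adjusted p 0.99), all in limma. The Rgs5 level was 2.2 to 7.95 times that of Pdgfrb in LPS+DMA libraries, 7.10 to 13.7 times in LPS libraries and 5.49 to 7.81 times in PBS libraries.

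Vtn encodes vitronectin, an adhesion protein of plasma and matrix that brain pericytes also secrete, and it lies at chr11:78389917-78393150 on the plus strand. It had 21.3, 38.2, 28.2 and 31.9 FPKM in LPS+DMA, 33.6, 32.2, 34.8 and 27.6 FPKM in LPS and 27.3, 29.4, 23.0 and 30.3 FPKM in PBS libraries, in the order female replicates 1 and 2, then male replicates 1 and 2. The LPS+DMA arm held both the lowest and the highest library, and the arms overlapped. The log2 change was -0.12 ± 0.17 in LPS+DMA against LPS and 0.22 ± 0.17 in LPS against PBS (adjusted p 0.662 and 0.667 in limma). Vitronectin protein in blood comes from the liver, and RNA levels in brain cannot show whether it was present. The liver genes Alb and Ahsg were at or near 0 in every library, with at most 0.136 FPKM of Alb and 0.0209 FPKM of Ahsg. The 7 liver genes summed to 0.0622 to 1.79 FPKM in LPS+DMA, 0.836 to 3.12 FPKM in LPS and 1.03 to 2.3 FPKM in PBS libraries. Apoa2, an apolipoprotein gene, averaged 0.573 ± 0.558 FPKM in LPS+DMA, 1.81 ± 0.857 FPKM in LPS and 1.31 ± 0.709 FPKM in PBS libraries (SD, n = 4 each). Of these genes 4 were at 0 in all LPS+DMA libraries, 4 in all LPS and 2 in all PBS libraries.

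Notch3, the mural NOTCH receptor (chr17:32339794-32385826, minus strand), had 1.88, 2.31, 2.47 and 2.84 FPKM in LPS+DMA, 2.26, 2.05, 3.82 and 3.18 FPKM in LPS and 1.97, 1.76, 2.51 and 2.84 FPKM in PBS libraries, in the same order. The male libraries were higher than the female libraries within each arm. Over all arms Notch3 averaged 2.94 FPKM in males and 2.04 FPKM in females, with a log2 difference of 0.37, an unadjusted p of 0.00209 and an adjusted p of 0.416 in limma, which does not pass. Its log2 change was -0.16 ± 0.11 in LPS+DMA against LPS, 0.05 ± 0.11 in LPS+DMA against PBS and 0.21 ± 0.11 in LPS against PBS, with adjusted p-values of 0.370, 0.884 and 0.526 in limma. Notch3 overlaps Gm17276, a long noncoding RNA gene on the opposite strand with a mean of 0.929 FPKM, and reads of the pair could have been mixed, since the strand setting of the counting is not stated.

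Kcnj8 and Abcc9 encode the pore (Kir6.1) and the regulatory subunit (SUR2) of a potassium channel that ATP closes and that relaxes vessels when it opens. They are neighbours on GRCm39 chromosome 6, both on the minus strand, at chr6:142510563-142517340 and chr6:142533588-142648041, 16248 bases apart. Kcnj8 had 1.22, 2.28, 0.851 and 1.48 FPKM in LPS+DMA, 1.45, 1.88, 2.62 and 2.95 FPKM in LPS and 1.76, 1.33, 1.46 and 1.99 FPKM in PBS libraries, in the order female replicates 1 and 2, then male replicates 1 and 2. The males of the LPS arm were the highest of all libraries and LPS+DMA male replicate 1 the lowest, and the arms overlapped. The log2 change of Kcnj8 was -0.40 ± 0.20 in LPS+DMA against LPS, with a 95% interval of -0.84 to 0.04 and an adjusted p of 0.216 in limma, and 0.27 ± 0.20 in LPS against PBS (adjusted p 0.660).

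Abcc9 had 1.51, 2.80, 1.96 and 2.00 FPKM in LPS+DMA, 1.94, 1.59, 2.66 and 2.09 FPKM in LPS and 1.64, 1.27, 1.86 and 1.84 FPKM in PBS libraries, in the same order. LPS+DMA female replicate 2 was highest and PBS female replicate 2 lowest, and the arms overlapped. The log2 change was -0.0045 ± 0.15 in LPS+DMA against LPS, with a 95% interval of -0.33 to 0.33, and 0.21 ± 0.15 in LPS against PBS (adjusted p 0.988 and 0.658 in limma). The level of Kcnj8 relative to Abcc9 was 0.698 ± 0.180 in LPS+DMA, 1.08 ± 0.283 in LPS and 0.996 ± 0.141 in PBS libraries (SD, n = 4 each). Kcnj8 was above Abcc9 in 5 of 12 libraries, none of them in the LPS+DMA arm, and the ranges of the ratio overlapped, with 0.433 to 0.815 in LPS+DMA, 0.747 to 1.41 in LPS and 0.786 to 1.08 in PBS libraries. The ratio was chosen after the values were seen and was not tested.

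Acta2, Tagln and Myh11 encode proteins of the contractile apparatus, and none of them passed in any comparison. Acta2, smooth muscle alpha actin (chr19:34218490-34232990, minus strand, GRCm39), had 6.12, 8.0, 7.30 and 10.3 FPKM in LPS+DMA, 8.65, 6.85, 10.6 and 6.65 FPKM in LPS and 7.82, 7.30, 5.98 and 10.4 FPKM in PBS libraries, in the order female replicates 1 and 2, then male replicates 1 and 2. Each arm had a male library above 10 FPKM, and the means of 7.94 FPKM in LPS+DMA, 8.20 FPKM in LPS and 7.88 FPKM in PBS libraries lay within 1 SD of each other. The log2 change of Acta2 was -0.04 ± 0.19 in LPS+DMA against LPS, 0.01 ± 0.19 in LPS+DMA against PBS and 0.05 ± 0.19 in LPS against PBS, and the 95% intervals reached from -0.46 to 0.47 at most.

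Myh11, the smooth muscle myosin heavy chain (chr16:14012399-14109236, minus strand), had 1.77, 2.76, 2.22 and 5.59 FPKM in LPS+DMA, 2.36, 2.27, 3.78 and 2.07 FPKM in LPS and 2.40, 2.24, 1.74 and 3.09 FPKM in PBS libraries, in the same order. The highest library of each arm for Myh11 was also its highest for Acta2. The log2 change was 0.11 ± 0.24 in LPS+DMA against LPS and 0.10 ± 0.24 in LPS against PBS (adjusted p 0.794 and 0.919 in limma). Tagln, the actin-binding protein transgelin (chr9:45840917-45847356, minus strand), had 4.37, 9.28, 11 and 6.36 FPKM in LPS+DMA, 6.62, 4.10, 6.93 and 4.86 FPKM in LPS and 5.03, 5.28, 3.64 and 6.72 FPKM in PBS libraries, in that order. The LPS+DMA arm had the 2 highest libraries and the widest spread, and the arms overlapped. The log2 change of Tagln was 0.36 ± 0.25 in LPS+DMA against LPS, 0.46 ± 0.25 in LPS+DMA against PBS and 0.10 ± 0.25 in LPS against PBS (adjusted p 0.374, 0.497 and 0.918 in limma). Tagln overlaps Pcsk7, a protease gene on the opposite strand with a mean of 4.27 FPKM, and the noncoding gene Gm48529 with a mean of 0.969 FPKM, so reads may have been shared.

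**Figure D4:**
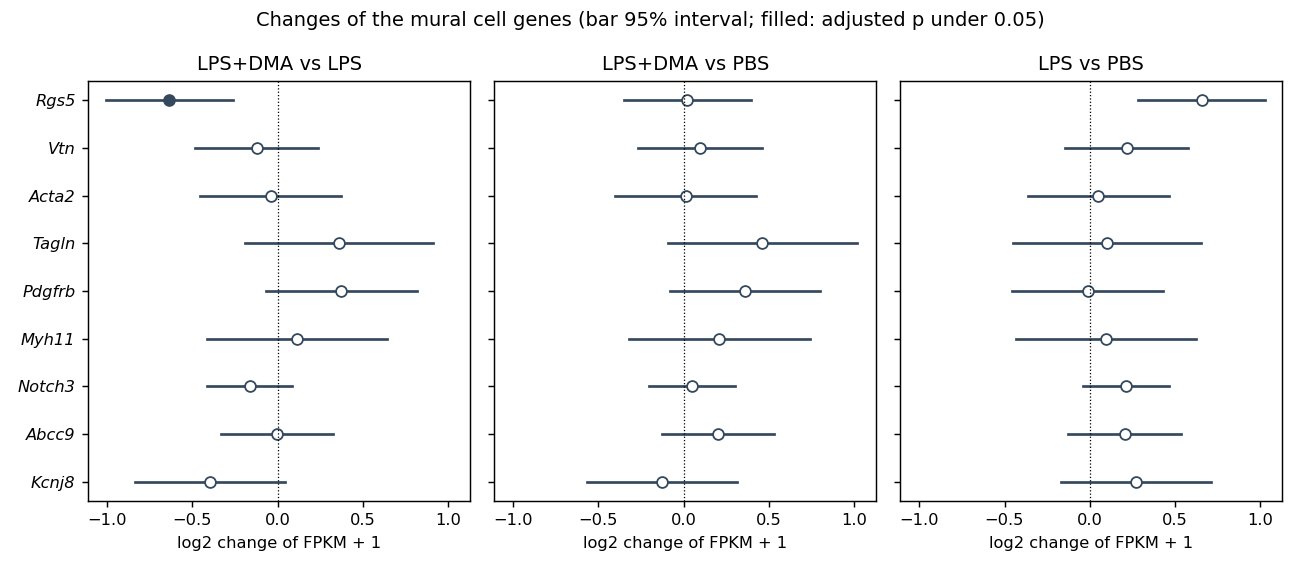
Log2 change of FPKM + 1 for the 9 genes in LPS+DMA against LPS, LPS+DMA against PBS and LPS against PBS (points estimates, bars 95% intervals, filled where the adjusted p in limma is under 0.05). Rgs5 at -0.64 in LPS+DMA against LPS is the only filled point.

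Contractile genes are activated by SRF, a transcription factor that binds CArG boxes, together with its partners myocardin and the MRTFs. The 120 bases upstream of the start of Acta2 (RefSeq, GRCm38, chr19:34255374-34255493, minus strand) are shown with its CArG-like stretches in capitals, 84 to 75 and 34 to 25 bases before the start. A CArG-like stretch was defined, after the sequence was seen, as CC, then 6 bases of which at most 1 is not A or T, then GG, which reads alike on both strands. It was found within 250 bases upstream of the start in 8.59% of 32851 promoters, and in Acta2 alone of the 6 members searched. The contractile members Tagln and Myh11 were not among those searched, so nothing is known here of their promoters.
Acta2: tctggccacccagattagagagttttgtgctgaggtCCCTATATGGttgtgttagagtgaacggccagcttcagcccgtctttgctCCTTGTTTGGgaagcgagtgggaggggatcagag

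Of 7 tested contractile regulators 4 passed as higher in LPS+DMA against LPS and 0 as lower, where 5.79% of all tested genes passed as higher. The median log2 change of the 7 was 0.84, against 0.01 over all genes tested. Srf had 11.1, 11.2, 13.8 and 11.3 FPKM in LPS+DMA libraries, against 5.62, 10.2, 4.53 and 5.35 FPKM in LPS and 7.27, 9.20, 7.54 and 7.26 FPKM in PBS libraries. LPS female replicate 2, the LPS library without cerebellar signal, was the highest of the LPS arm. The log2 change of Srf was 0.84 ± 0.18 (adjusted p 0.0242 in limma). Mrtfa rose by 0.87 ± 0.20, Mrtfb by 1.70 ± 0.31 and Mef2c, a factor of muscle and of cortical neurons, by 2.56 ± 0.51 on the log2 scale (adjusted p 0.0277, 0.0197 and 0.0213 in limma). Myocd, the myocardin gene, stood at no more than 0.149 FPKM in any library.

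A list of 10 cortex and hippocampus genes summed to 703 to 1170 FPKM in LPS+DMA, 27.0 to 833 in LPS and 479 to 754 in PBS libraries, and 7 of 10 passed as higher in LPS+DMA against LPS. Mrtfb had 24.3 FPKM in LPS female replicate 2, against 6.48 to 8.28 FPKM in the LPS libraries with cerebellar signal. With the forebrain covariate, or with the choroid plexus and blood covariates, 0 of all tested genes passed in this comparison in limma (1640 and 682 at an unadjusted p under 0.05). Without the 4 libraries with cerebellar signal 5 genes passed. The log2 changes with the forebrain covariate were 0.39 for Srf, 0.36 for Mrtfa, 0.71 for Mrtfb and 1.05 for Mef2c (adjusted p 0.643, 0.68, 0.495 and 0.579 in limma). Without the 4 cerebellar libraries they were 0.21, 0.36, 0.64 and 0.53 in the same order (adjusted p 1.00 for each in limma), and with equal sums Srf and Mrtfa did not pass (adjusted p 0.0612 and 0.0641 in limma).

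Among 5 related PDGF genes, Pdgfd, which encodes a ligand of the same receptor as PDGF-B, was the only one to pass. Of all tested genes 9.67% passed in LPS+DMA against LPS. Pdgfd was the gene with the smallest p of its list. It had 1.13, 1.72, 0.532 and 2.06 FPKM in LPS+DMA and 6.20, 2.53, 6.16 and 6.42 FPKM in LPS libraries, with 3.49, 1.26, 1.89 and 2.69 FPKM in PBS libraries. All LPS+DMA libraries lay below all LPS libraries, and LPS female replicate 2 was again the LPS library nearest to LPS+DMA. Pdgfd fell by 1.41 ± 0.30 on the log2 scale in LPS+DMA against LPS (adjusted p 0.0239 in limma). Pdgfb, the ligand from endothelial cells, had 6.75, 7.41, 5.02 and 5.59 FPKM in LPS+DMA and 3.44, 6.13, 4.07 and 3.41 FPKM in LPS libraries, with 3.99, 6.68, 4.02 and 3.78 FPKM in PBS libraries, and it did not pass. Of 14 Notch ligands, receptors and targets, 0 passed in any comparison. Jag2, a Notch ligand, came nearest in LPS+DMA against LPS with 0.38 ± 0.16 (adjusted p 0.145 in limma).

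Of 15 tested further pericyte genes 0 passed as higher and 1 as lower in LPS+DMA against LPS, with a median log2 change of -0.26 against 0.01 over all genes. Over all tested genes 5.79% passed as higher and 3.88% as lower. The gene that passed was Mcam, an adhesion molecule of vessel walls, with 3.29, 5.10, 4.38 and 4.42 FPKM in LPS+DMA, 9.76, 4.62, 13.4 and 12.4 FPKM in LPS and 9.09, 4.83, 6.92 and 8.64 FPKM in PBS libraries. The ranges overlapped through LPS female replicate 2, at 4.62 FPKM. Its log2 change was -0.98 ± 0.25 (adjusted p 0.0353 in limma). Higd1b, a marker of brain pericytes, had 4.98, 4.94, 0.360 and 2.41 FPKM in LPS+DMA, 3.59, 4.32, 5.42 and 4.13 FPKM in LPS and 2.80, 3.87, 5.25 and 2.13 FPKM in PBS libraries. The value of LPS+DMA male replicate 1 stood far below all others.

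That library was lowest of the 12 for 6 of 25 pericyte and member genes, which were Rgs5, Kcnj8, Higd1b, Atp13a5, Anpep and P2ry14, and highest for Pdgfrb, Tagln and Foxf2. LPS male replicate 1 was highest for 10 of the 25, Rgs5, Acta2 and Notch3 among them. Microglial genes were also low in LPS+DMA male replicate 1, with 0.881 FPKM of Cx3cr1 against 8.75 to 10.8 FPKM in the other LPS+DMA libraries. Without LPS+DMA male replicate 1 the Rgs5 change in LPS+DMA against LPS was -0.50 (adjusted p 0.0718 in limma), and without LPS male replicate 1 it was -0.48 (adjusted p 0.123). These genes were counted after the values were seen.

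Of 15 tested further smooth muscle genes 1 passed as higher and 1 as lower in LPS+DMA against LPS, with a median log2 change of -0.14. The shares over all tested genes were 5.79% higher and 3.88% lower. Tpm1, a tropomyosin that neurons and other cells also express, averaged 30.1 ± 4.64 FPKM in LPS+DMA and 21.1 ± 3.94 FPKM in LPS libraries (SD, n = 4 each), with a log2 change of 0.50 ± 0.12 (adjusted p 0.0328 in limma). Tpm2, the tropomyosin more typical of smooth muscle, averaged 2.81 ± 0.738 FPKM in LPS+DMA and 4.86 ± 0.686 FPKM in LPS libraries, with a log2 change of -0.64 ± 0.16 (adjusted p 0.0329 in limma). Its LPS+DMA libraries, at 1.87 to 3.62 FPKM, lay below all LPS libraries, at 4.39 to 5.88 FPKM. The 2 tropomyosins thus changed in opposite directions.

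Among 5 inward rectifier and related channel genes, Kcnj10, the channel of astrocytes, averaged 31.6 ± 15.9 FPKM in LPS+DMA and 74.7 ± 22.8 FPKM in LPS libraries and fell by 1.29 ± 0.31 on the log2 scale (adjusted p 0.0294 in limma). Kcnj2, which encodes the Kir2.1 channel of capillary endothelium and of neurons, averaged 5.27 ± 1.45 FPKM in LPS+DMA and 2.40 ± 0.788 FPKM in LPS libraries and rose by 0.88 ± 0.19 (adjusted p 0.0240 in limma). Of 7 tested vitronectin receptor and partner genes only the integrin subunit Itgb5 passed, with 9.99 ± 3.13 FPKM in LPS+DMA, 18.5 ± 3.23 FPKM in LPS libraries and a log2 change of -0.86 ± 0.22 (adjusted p 0.0345 in limma). Of 14 tested genes for vasoactive signals, 2 passed as higher and 1 as lower. They were Gucy1b1 and Gucy1a1, the subunits of the nitric oxide receptor, with log2 changes of 0.97 ± 0.18 and 0.61 ± 0.17, and Edn3, an endothelin, with -0.53 ± 0.14 (adjusted p 0.0203, 0.0472 and 0.0430 in limma). These counts stand beside 9.67% of all tested genes that passed in LPS+DMA against LPS, 5.79% as higher and 3.88% as lower.

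Of 12 genes of the TGF-beta and angiopoietin pathways, Angpt1, a ligand that mural cells release to the endothelium, passed as lower in LPS+DMA against LPS. It averaged 1.30 ± 0.601 FPKM in LPS+DMA and 2.64 ± 0.561 FPKM in LPS libraries, with a log2 change of -0.70 ± 0.19 (adjusted p 0.0464 in limma). All 12 had positive log2 changes in LPS against PBS, with a median of 0.26, and none passed. All 14 endothelial genes likewise had positive changes in LPS against PBS, with a median of 0.49 against -0.0093 over all genes, and none passed. The transporter gene Abcb1a came nearest, with 11 ± 0.724 FPKM in LPS and 7.01 ± 0.584 FPKM in PBS libraries and a log2 change of 0.58 ± 0.10 (adjusted p 0.133 in limma). Itm2a alone passed among the endothelial genes in LPS+DMA against LPS, with -0.83 ± 0.21 (adjusted p 0.0336 in limma). In that comparison 9.67% of all tested genes passed, so 1 of 14 endothelial and 1 of 12 TGF-beta and angiopoietin genes are near that share.

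The 16 genes of these vascular lists that passed in LPS+DMA against LPS kept their direction under every alternative run. They were picked because they passed in these libraries, which the alternatives largely share. Without the filter, 0 of the 16 and 83 of all genes passed. With 2 arms only, 0 of the 16 and 5 of all genes passed, and with either covariate fit 0 of all genes. With LPS female replicate 1 left out 0 of the 16 and 11 of all 19571 genes passed. Leaving out either male LPS library also gave 0 of the 16, with 7 of all genes for replicate 1 and 22 for replicate 2. Without any other single library 8 to 15 of the 16 passed. With FPKM rescaled to equal sums 12 passed, and Srf, Mrtfa, Tpm1 and Gucy1a1 did not, with log2 changes of 0.70, 0.73, 0.35 and 0.47 and adjusted p-values of 0.0612, 0.0641, 0.132 and 0.103 in limma.

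Other cell types that express some of the members were read from their own markers. Fibroblasts of the meninges also express Pdgfrb, and their 12 genes summed to 36.6 to 64.9 FPKM in LPS+DMA, 34.9 to 84.9 in LPS and 15.4 to 52.6 in PBS libraries. None of the 11 tested passed in any comparison, and none was at 0 throughout an arm. Striated muscle genes, 10 in all, summed to 3.82 to 6.78 FPKM in LPS+DMA, 1.47 to 11.5 in LPS and 3.57 to 5.86 in PBS libraries, and 3 of them were tested, none of which passed. The choroid plexus list in LPS+DMA against LPS had 8 of 12 genes passing as lower, the microglia list 5 of 8 as lower, the astrocyte list 1 as higher and 2 as lower of 8, and the ependymal list 1 of 5 as lower. Of all tested genes 3.88% passed as lower and 5.79% as higher. The covariate fits given above for Rgs5 were also run for the other members, and none of them passed there in any comparison. Over all tested genes these fits called 0 in LPS against PBS, 0 in LPS+DMA against LPS and at most 1 in LPS+DMA against PBS. That no member passed there therefore says nothing about the members.

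The change of Rgs5 in LPS+DMA against LPS was -0.27 on the log2 scale in females and -1.0 in males. The difference between the sexes was 0.73 with an unadjusted p of 0.0300 and an adjusted p of 0.853 in limma, so it does not pass. Kcnj8 had 0.03 in females and -0.82 in males, with an unadjusted p of 0.0359 and an adjusted p of 0.853 in limma. LPS+DMA male replicate 1, lowest for both genes, and LPS male replicate 1, highest for Rgs5, are among the males. For the other 7 members the smallest unadjusted p of a sex difference in this comparison was 0.271, for Notch3, and 0 of 19571 genes passed in limma in any of the 3 comparisons.

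Within the set, Acta2 and Myh11 varied together over the 12 libraries. Of 36 pairs of members, 31 had a positive correlation of log2(FPKM + 1), with a median Pearson r of 0.417. The points share arm, tissue content and depth. For Acta2 with Myh11, Pearson's r was 0.869 (permutation p 8e-05, adjusted over the 36 pairs 0.00288) and Spearman's rho 0.930 (permutation p 4e-05, adjusted 0.00144). Without the 2 libraries farthest from the median of Acta2, r was 0.895, and within arms it was 0.897. No other pair passed. Rgs5 with Kcnj8 had an r of 0.731 (permutation p 0.00656, adjusted 0.118) and a rho of 0.622 (permutation p 0.0335, adjusted 0.196), with an r of 0.536 without the 2 farthest libraries.

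Abcc9 with Notch3 had an r of 0.708 (permutation p 0.0121, adjusted 0.128) and a rho of 0.741 (permutation p 0.00794, adjusted 0.0950), and an r of 0.922 without the 2 farthest libraries. The channel subunits Kcnj8 and Abcc9 had an r of 0.537 (permutation p 0.0710, adjusted 0.204) and a rho of 0.545 (permutation p 0.0694, adjusted 0.227), and an r of 0.755 without the 2 farthest libraries. Pdgfrb with Tagln had an r of 0.639 (permutation p 0.0391, adjusted 0.193) and a rho of 0.287 (permutation p 0.368, adjusted 0.536). Its r was -0.231 without the 2 farthest libraries, so this value rests on those libraries. Pdgfrb with Rgs5, both pericyte markers, had an r of -0.415 (permutation p 0.136, adjusted 0.288) and a rho of -0.406 (permutation p 0.193, adjusted 0.409), and an r of -0.0603 without the 2 farthest libraries.

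**Figure D5:**
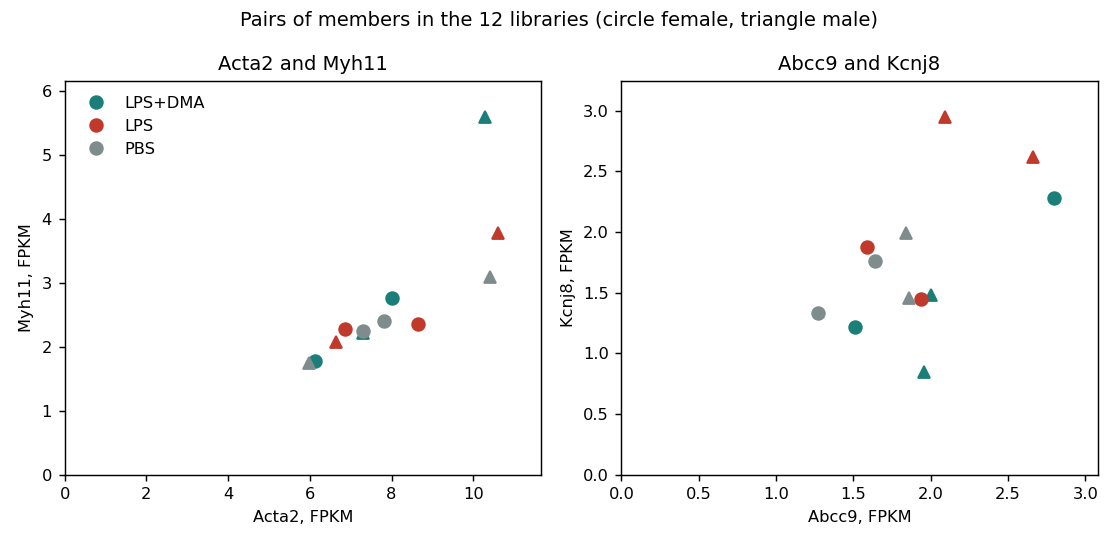
FPKM of Myh11 against Acta2 (left) and of Kcnj8 against Abcc9 (right) in the 12 libraries (circles female, triangles male). Acta2 and Myh11 lie along a line with an r of 0.869 on the log2 scale, and LPS+DMA male replicate 2 has the highest Myh11 at 5.59 FPKM, while Kcnj8 and Abcc9 scatter more widely.

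Among all tested genes, those whose log2 levels followed a member most closely over the 12 libraries were listed as a description. For Vtn they were the smooth muscle genes Lmod1 (r 0.898) and Myl9 (r 0.837) together with Cytl1 (r 0.890). For Acta2 they were the pseudogene Gm13991 (r 0.909), Myh11 (r 0.869) and Gm22523 (r 0.862). For Rgs5 they were Gm26621 (r 0.934), Fblim1 (r 0.934) and the lactate transporter gene Slc16a1 (r 0.925). For Pdgfrb they were Ctdp1 (r 0.955), Gm16006 (r 0.955) and Ccdc116 (r 0.946), and for Notch3 Entpd3 (r 0.957), Cert1 (r 0.923) and Eml2 (r 0.920). For Kcnj8 they were Trim56 (r 0.894), Tspan15 (r 0.879) and Spidr (r 0.861), and for Abcc9 Abat (r 0.908), Nsa2 (r 0.897) and Carhsp1 (r 0.882). For Tagln they were Amh (r 0.933), Gm10244 (r 0.882) and 1700096K18Rik (r 0.862), and for Myh11 Gm42883 (r 0.951), Gm49011 (r 0.936) and Wfdc21 (r 0.917). Values this high arise easily among 19571 genes over 12 libraries, and several of these genes are near the filter of 0.5 FPKM.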

How the data were processed

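The authors deposited 1 table of FPKM for 56748 genes and 12 libraries, with gene lengths, names and GRCm39 coordinates. Per the submitters' processing notes reads were handled with tools that include HISAT2 2.2.1 and featureCounts 2.0.6, with no role given. The labels' protocols describe 2 preparations, of which 1 keeps strand, and do not say which was used. Values times gene length were whole multiples of 1 step per library, within 0.1 reads, for 100% of values up to 1000 reads, which gave reads and depth. Per the labels each library is a separate mouse.

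The genes with at least 0.5 FPKM in 2 libraries were tested as log2(FPKM + 1), a scale that understates changes of low genes, in R 4.3.3 with limma 3.58.1, with sex and arm over all 12 libraries. The threshold was an adjusted p (Benjamini-Hochberg, over 19571 genes) of 0.05. Permutation tests (two-sided, 100000 resamples) used scipy 1.17.1. They were added to a plan that gave the correlations without p. The fit was tested on simulated data. The members and the gene lists were chosen with earlier results of these data known. Named genes are all members, up to 4 genes per list with the smallest p among those that passed (otherwise up to 2), the first 2 markers of each list, Gabra6, Ttr and the 3 genes most like each member. Pdgfb, Myocd and Cx3cr1 and the genes lowest or highest in a single library were chosen after their values were seen. Promoters came from RefSeq (GRCm38) and were searched for 6 of 9 members, without Pdgfrb, Tagln and Myh11. The member search skipped chromosome 18, where Pdgfrb lies. Alternatives covered pseudocount, filter, scaling, variance model, terms, libraries and a count model (voom) on recovered reads.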

Additional observations from a re-analysis of the deposited data

Results flagged for a closer look

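Among 27 groups of 4 libraries (9 members in 3 arms), 1 had a library far from the others, where chance flags about 1 in 20. It was Myh11 in the LPS arm, in which male replicate 1 stood at 3.78 FPKM against 2.07 to 2.36 FPKM in the other LPS libraries. The gap to its nearest neighbour was 0.8292 of the range of the arm.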

How the results depend on the processing

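The fall of Rgs5 in LPS+DMA against LPS (log2 change -0.636) was negative under all 25 alternatives and passed under 10 of them. It did not pass without the filter (adjusted p 0.0881), in the 2 arms alone (0.108), with either covariate fit or without the 4 libraries with cerebellar signal, and when single libraries were left out it ranged from -0.719 to -0.479 and passed for 3 of 12. With the replicate block it stayed at -0.636 with an adjusted p of 0.0560. Whether same-numbered libraries were paired could not be told. Their deviations correlated at -0.0228 to 0.392, above 0.1 for 6 of 12 pairs. The own number matched best in 11 of 24 checks, each among 4 libraries of another arm. Same-numbered libraries also share sex, which these checks did not remove. The other 26 member changes passed in 1 of 650 fits, all in limma, which was Rgs5 in LPS against PBS without LPS+DMA male replicate 1 and LPS female replicate 2 (log2 change 0.72, adjusted p 0.0264), a setting added after the data were seen. With arms this small and tissue content that differs between libraries, changes under about 0.4 on the log2 scale lie within the 95% intervals of most members.

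Counts of genes passing in LPS against PBS (2) were 1 with pseudocount 0.1, without a filter, with the replicate block and with voom, 4 with 2 arms only and without the cerebellar libraries, and 0 with either covariate fit, and 0 to 672 with single libraries left out. For LPS+DMA against LPS (1892) they were 83 without a filter, 5 with 2 arms only and without the cerebellar libraries, 0 with either covariate fit and 7 to 3465 with single libraries left out. For LPS+DMA against PBS (2) they were 1 with the replicate block and the forebrain covariate, 0 without a filter, without the sex term, with 2 arms only, with voom, with the choroid plexus and blood covariates and without the cerebellar libraries, and 0 to 6 with single libraries left out. Without LPS+DMA male replicate 1 and LPS female replicate 2 together 4156 genes passed in LPS+DMA against LPS, 4 in LPS+DMA against PBS and 1396 in LPS against PBS. With equal sums per library the median of all genes was -0.089 in LPS+DMA against LPS and the calls split into 399 higher and 1594 lower, against 1133 and 759. The log2 changes with equal sums were -0.787 for Rgs5, 0.244 for Pdgfrb and 0.227 for Tagln, against -0.636, 0.374 and 0.36.

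Some changes that did not pass took the other sign, and the cause was not tested. In LPS against PBS, the forebrain covariate gave 0.169 for Pdgfrb, -0.00513 for Acta2 and -0.0394 for Tagln. The choroid plexus and blood covariates gave 0.540 for Pdgfrb, -0.0102 for Rgs5, -0.412 for Acta2, -0.429 for Myh11, -0.0742 for Abcc9 and -0.0317 for Notch3. Without the cerebellar libraries it was 0.364 for Pdgfrb, -0.0120 for Acta2 and -0.136 for Tagln. For LPS+DMA against LPS, the forebrain covariate gave 0.0484 for Acta2 and 0.143 for Abcc9, the choroid plexus and blood covariates -0.0105 for Pdgfrb, 0.273 for Acta2 and 0.147 for Abcc9, and leaving out the cerebellar libraries -0.0202 for Pdgfrb, 0.0624 for Acta2 and 0.180 for Abcc9. For LPS+DMA against PBS, equal sums gave -0.121 for Rgs5, -0.118 for Acta2, -0.0488 for Notch3 and -0.0479 for Vtn, and the choroid plexus and blood covariates -0.140 for Rgs5, -0.139 for Acta2, -0.0186 for Myh11, -0.0449 for Notch3 and -0.0381 for Vtn. Without LPS+DMA male replicate 1 and LPS female replicate 2 it was 0.0312 for Kcnj8.

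With single libraries left out, changes in LPS against PBS ranged from -0.141 to 0.0506 for Pdgfrb, from -0.0990 to 0.172 for Acta2, from -0.0695 to 0.208 for Tagln and from -0.0555 to 0.224 for Myh11. For LPS+DMA against LPS they ranged from -0.160 to 0.0663 for Acta2, from -0.131 to 0.257 for Myh11, from -0.154 to 0.0694 for Abcc9 and from -0.255 to 0.05 for Vtn. For LPS+DMA against PBS they ranged from -0.0596 to 0.159 for Rgs5, from -0.139 to 0.129 for Acta2, from -0.0340 to 0.354 for Myh11, from -0.311 to 0.0331 for Kcnj8, from -0.0119 to 0.102 for Notch3 and from -0.0372 to 0.267 for Vtn.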
